A study of Mus musculus with 24 samples.

Results

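The response of mpkCCD cells to 6 h of dDAVP was measured by RNA sequencing as the difference between 3 dDAVP libraries and 3 vehicle libraries, 6 of the 24 libraries of a time course. mpkCCD is a mouse kidney epithelial line derived from cortical collecting duct, labelled C57BL/6, wild type and passage 10 to 11. dDAVP (desmopressin) is a synthetic analogue of vasopressin. The cells of both groups had grown on permeable filters for 6 days and had been kept in minimal medium for 24 h before dDAVP or vehicle was added to the basolateral chamber. The line is a single cell line, and the labels do not state whether the libraries of a group came from separate cultures, so a p-value here measures the spread between libraries, which may be technical. The genes described are those with a mean of at least 5 CPM (counts scaled to a fixed library total) in either group: 12503 of the 54432 genes in the table. Of these, 11081 reached that level in both groups, 60 in dDAVP alone and 1362 in vehicle alone. Slc27a3 lay just inside (5.0021 CPM in the higher group) and Gm28900 just outside (4.9979 CPM). All 12503 were among the 29743 genes that passed the filter on low counts over the whole series.

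Vasopressin acts on principal cells of the collecting duct through the V2 receptor, which couples to Gs and adenylyl cyclase. The cyclic AMP formed activates protein kinase A, which drives the water channel aquaporin-2 into the apical membrane and phosphorylates transcription factors such as CREB. Longer exposure raises the amount of aquaporin-2 by transcription of its gene, and the same hormone acts on the epithelial sodium channel, ENaC.

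Of 19 markers of the principal cells of the collecting duct, 13 reached 5 CPM in either group. In TPM, a level per length, the keratin Krt18 was at 1020 to 1060 TPM in dDAVP and 1020 to 1090 TPM in vehicle, and Gata3, a transcription factor of this segment, at 41.8 to 46.0 TPM in dDAVP and 39.1 to 51.2 TPM in vehicle. The V2 receptor gene Avpr2 was at 11.6 to 12.4 TPM in dDAVP and 14 to 15.5 TPM in vehicle, whereas in CPM, given below, its dDAVP libraries were the higher ones. A single gene, Gm24245, held 49.0% to 51.7% of the TPM total in dDAVP and 43.2% to 46.9% in vehicle. TPM values are therefore given as levels and not as differences between the groups. Scnn1b, which encodes the ENaC beta subunit, was nearly absent, with 0.109 to 0.276 TPM in dDAVP and 0.396 to 0.509 TPM in vehicle. Other markers on the list were also low over the 6 libraries: Kcnj1 at 0.0163 to 0.269 TPM, Aqp4 at 0.138 to 0.403, Tfap2b at 0.0697 to 0.486 and Elf5 at 0.194 to 0.95. Umod, which defines the thick ascending limb, had 0 or 1 count in the dDAVP libraries and 1 to 3 counts in the vehicle libraries.

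The 2 groups also differed in the share of counts held by chemosensory receptor genes. Olfactory (Olfr) and vomeronasal (Vmn) receptor genes, 1730 in the table, are the receptor families with which nasal sensory neurons detect odours and pheromones. They held 0.180%, 0.138% and 0.281% of the counts in dDAVP replicates 1, 2 and 3, against 0.562%, 0.591% and 0.451% in vehicle replicates 1, 2 and 3. All dDAVP libraries lay below all vehicle libraries. The mean share was 0.2% ± 0.0739 in dDAVP and 0.534% ± 0.0741 in vehicle (SD, n = 3 each), a difference of -0.335 percentage points. This difference was known when the comparison was chosen and is given as a description; its origin was not tested, and at 6 h it cannot be told apart from treatment. The dDAVP libraries were also deeper, with 22.16 to 27.64 M estimated counts against 17.25 to 20.33 M, and counted fewer genes, 37199 to 42384 against 43700 to 44528. Summed CPM of other low-level markers, taken on library totals without the scaling used in the fits below, were also lower in dDAVP. For leukocyte markers the sum was 29.7 to 32.9 in dDAVP and 44.3 to 48.3 in vehicle (3 of 9 genes reached 5 CPM). For olfactory neuron markers it was 26.7 to 33.9 in dDAVP and 39.2 to 45.3 in vehicle (2 of 10). Of proximal tubule markers, 1 of 11 reached 5 CPM (sums of 44.1 to 53.5 CPM in dDAVP and 73.6 to 75.4 in vehicle), and of intercalated cell markers 2 of 13 (35.3 to 37.2 and 39.2 to 42.2 CPM). For thick limb and distal tubule markers the count was 1 of 8 (9.15 to 11.9 CPM in dDAVP and 14.9 to 19.8 in vehicle) and for fibroblast and endothelial markers 1 of 14 (7.94 to 18.8 and 27.5 to 38.4 CPM). With that scaling and no term for receptor share, the members at 5 CPM differed less evenly. Their median log2 fold change was -0.03 for leukocyte, -0.02 for olfactory neuron, -0.13 for proximal tubule and 0.31 for intercalated cell markers. It was -1.09 for thick limb and distal tubule markers and -1.05 for fibroblast and endothelial markers. These are the values of single genes, Slc12a3 and Flt1, as the proximal tubule value is that of Lrp2. For a low-level gene that meets the minimum of 5 CPM through vehicle, a negative value is favoured. No marker was at 0 in all 6 libraries.

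**Figure D1:**
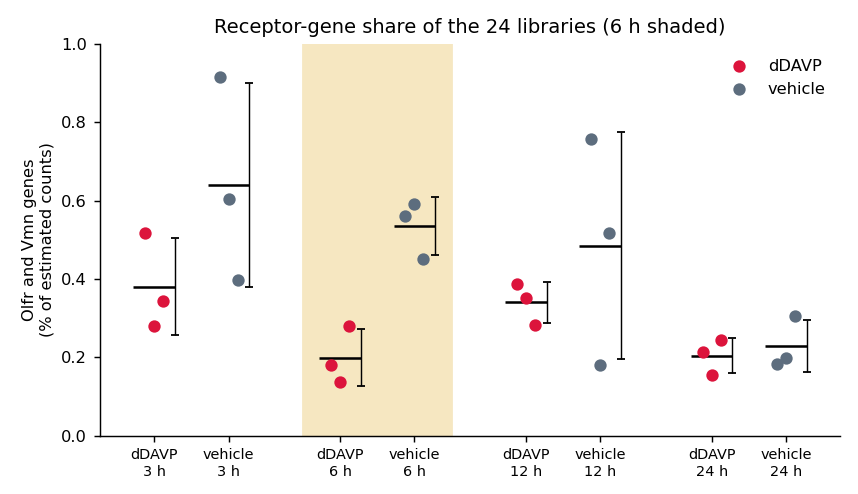
Share of the estimated counts in Olfr and Vmn genes (%, y axis) in each library, by treatment and time. Points are libraries, lines the means of 3 libraries and bars the SD, and at 6 h (shaded) the dDAVP libraries at 0.138% to 0.281% lie below the vehicle libraries at 0.451% to 0.591%.

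Because of this difference, each gene was tested both without and with a term for the log2 receptor share of its library. The slope on that share was estimated within the 8 groups of the series, so it rests on replicates that differ in share and not on treatment. Without the term, 7503 of the 12503 genes (60.0%) passed an adjusted p of 0.05 at 6 h, 6087 higher in dDAVP (48.7%) and 1416 lower (11.3%). With the term 92 passed (0.736%), 77 higher and 15 lower. The 2 fits shared 81 genes, called in the same direction in both (0.648%): 75 higher (0.6%) and 6 lower (0.048%). Over all 29743 genes tested the shares called were 38.1% without the term, 0.336% with it (0.279% higher and 0.0572% lower) and 0.286% in both (0.266% and 0.0202%). These 81 are the genes that changed beyond the receptor background. A further 7422 lost their call once the share was in the fit, 11 gained one, and 4989 were called in neither. Of the 75 higher genes, 64 had means of at least 5 CPM in both groups with CPM scaled as in the fits. Ramp3, Baiap2l2, Pde4b and Arg2 averaged 0.822, 3.63, 3.92 and 4.21 CPM in vehicle on that scale. They passed the minimum through dDAVP alone, so they had to be higher in dDAVP. The share term acted on the error of the comparison in opposite ways. Since share and treatment overlap at 6 h, it raised the variance factor of the contrast 1.69 times. The common dispersion was lower with it, at 0.00635 against 0.0366 without. The SE of a gene could therefore fall, as for Akap12 (0.130 without and 0.101 with the term), or rise, as for Cebpb (0.66 and 0.77).

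How far the plain difference at 6 h followed the background was measured with libraries outside the comparison. The slope of each gene on receptor share was refitted on the 18 libraries of 3, 12 and 24 h and multiplied by the mean log2 difference in share at 6 h, -1.474. Over the 12503 genes this product had the sign of the plain log2 fold change for 96.2% and lay within 0.2 log2 units of it for 82.5%. Across genes, which are not independent replicates, the Pearson correlation was 0.902 and the Spearman correlation 0.756. For the 7422 genes that lost their call the median of the product was 0.35 and that of the plain log2 fold change 0.39. For the 81 genes called in both fits these medians were 0.30 and 0.95, and for none of them was the product within 0.2 of the plain value. This contrast between the classes is no separate test. The classes were set by the fit with the share term, whose slopes correlated with the refitted ones at 0.98 for the 81 and 0.999 for the 7422. The contrast thus follows largely from the classification.

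**Figure D2:**
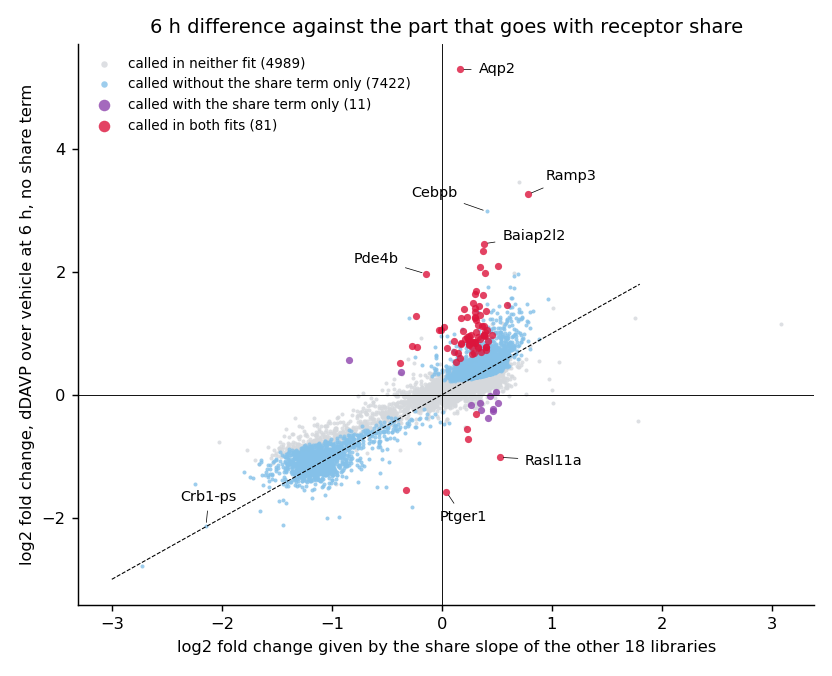
Plain log2 fold change at 6 h, dDAVP over vehicle (y axis), against the log2 fold change given by the slope on receptor share in the 18 libraries of the other times (x axis), for the 12503 genes but 1; Gm13370, at 10.64 with counts in a single library, lies beyond the axis. Most genes lie along the dashed line of equality. The 81 genes called in both fits (red) lie off it, most of them above, which follows largely from how they were chosen.

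**Figure D3:**
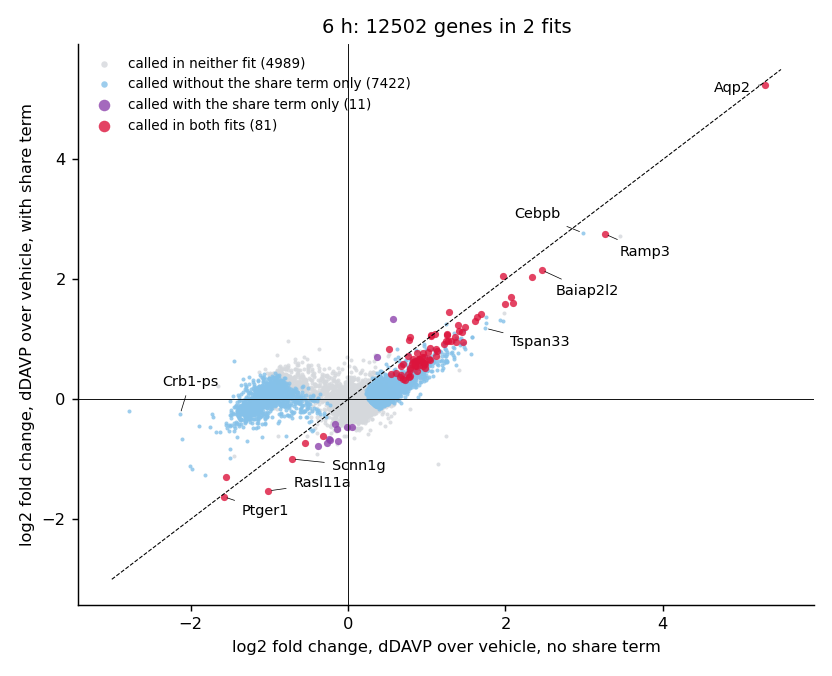
Log2 fold change at 6 h, dDAVP over vehicle, with the share term (y axis) against that without it (x axis), for the same genes. Most of the blue genes, called without the term only, lie near 0 on the y axis, whereas red genes such as Aqp2 (5.29 without and 5.25 with the term) keep most of their difference; the dashed line marks equal values.

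The largest rise beyond the background was that of 1 water channel gene, Aqp2. Aqp2 (ENSMUSG00000023013, chromosome 15, 99579055 to 99584547, GRCm38), whose product aquaporin-2 carries water across the apical membrane, had 190, 177 and 231 CPM in dDAVP libraries 1, 2 and 3, against 5.04, 4.13 and 6.06 CPM in vehicle libraries 1, 2 and 3. Every dDAVP library was far above every vehicle library. The log2 fold change was 5.29 ± 0.17 (SE) without the share term, a 39.2-fold difference, and 5.25 ± 0.17 with it (adjusted p = 4.85e-17). Per length Aqp2 stood at 59.6 to 86.3 TPM in dDAVP and 2.27 to 2.96 TPM in vehicle. Aqp5, a water channel of secretory epithelia whose gene neighbours Aqp2 on chromosome 15, averaged 57.0 ± 1.86 CPM in dDAVP and 18.2 ± 1.47 CPM in vehicle (SD, n = 3; log2 fold change 1.38 ± 0.14 with the share term, adjusted p = 5.34e-07). Avpr2, the third gene of 10 on the water channel and receptor list to reach 5 CPM, was at 38.9, 44.1 and 40.7 CPM in dDAVP and 33.7, 35.3 and 34.6 CPM in vehicle. Its groups did not overlap, as was so for 81.7% of the 12503 genes (67.6% with dDAVP higher and 14.2% with it lower), but it passed in neither fit (log2 0.25 without and -0.11 with the term, adjusted p = 0.107 and 0.948). Aqp3, the basolateral water channel, stayed under 5 CPM, at 1.43 to 1.54 TPM in dDAVP and 1.31 to 2.69 TPM in vehicle.

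Of 27 genes that make, break down or respond to cAMP, 2 rose with the share term and 0 fell, beside 0.616% and 0.12% of all 12503 genes. Without the term 15 were higher and 5 lower, beside 48.7% and 11.3% of all 12503 genes. Pde4b, a phosphodiesterase that breaks down cAMP, had 15.3, 15 and 15.9 CPM in dDAVP against 3.69, 3.20 and 4.86 CPM in vehicle, with no overlap (log2 fold change 2.06 ± 0.17 with the term, adjusted p = 5.69e-08). Akap12, which anchors protein kinase A, had 245, 247 and 245 CPM in dDAVP and 92.3, 99.2 and 107 CPM in vehicle (0.98 ± 0.10, adjusted p = 8.79e-07). Its dDAVP libraries were nearly equal and all above the vehicle libraries. The related phosphodiesterase Pde4a had 9.29 ± 0.254 CPM in dDAVP and 6.04 ± 1.21 CPM in vehicle, with log2 0.62 without the term and 0.83 with it (adjusted p = 0.0203 and 0.0544), and its call without the term was kept only when dDAVP replicate 3 was left out. Adcy6, the adenylyl cyclase isoform tied to V2 receptor signalling in this cell type, was at 0.33 with the term (adjusted p = 0.334). The list median was 0.36 without the term and 0.13 with it, against 0.32 and 0.02 over all 12503 genes.

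Of 31 genes of CREB, its cofactors and the immediate early response, 26 were called higher and 0 lower in the plain fit, in which 48.7% of all 12503 genes were called higher. With the share term 4 were called higher and 0 lower, beside 0.616% of all genes called higher. Nr4a1, an orphan nuclear receptor induced quickly by cAMP, had 54.7, 61.9 and 58.3 CPM in dDAVP against 19.2, 19.4 and 23.6 CPM in vehicle. All dDAVP libraries stood well above the vehicle libraries (log2 fold change 1.20 ± 0.16 with the term, adjusted p = 0.000107). Its relative Nr4a2 averaged 17.8 ± 1.75 CPM in dDAVP and 7.39 ± 1.4 CPM in vehicle (1.07 ± 0.15, adjusted p = 0.000225). Sik1, a kinase that restrains CREB coactivators, averaged 29.2 ± 2.29 CPM in dDAVP and 14.9 ± 1.86 CPM in vehicle (0.71 ± 0.12, adjusted p = 0.00309), and Egr2, a zinc finger factor, 17.7 ± 1.41 and 9.97 ± 0.861 CPM (0.67 ± 0.14, adjusted p = 0.0306). Crem, a cAMP-inducible regulator, and Fos, a subunit of AP-1, lost their calls: Crem was at 1.04 without the term and 0.58 with it (adjusted p = 0.00174 and 0.125), and Fos at 0.92 and 0.54 (adjusted p = 0.00212 and 0.215). The list median fell to 0.18 with the term, against 0.59 without it. Egr2 lost its call in the fit with the share term without dDAVP replicate 3 (adjusted p = 0.476), vehicle replicate 2 (0.101) or vehicle replicate 3 (0.196), and Sik1 without dDAVP replicate 3 (0.157).

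The upstream sequence of the risen genes was searched for the sites through which CREB binds DNA, the cAMP response element (CRE). Of the 75 genes higher in both fits, 54 had a promoter in the RefSeq table (GRCm38.p6; 1 chromosome was not used), and the 250 bases before each start site were read on both strands. The full palindrome TGACGTCA was found for 1 of the 54 (1.85%), against 3.1% of the 9089 genes of at least 5 CPM in that table and 1.77% of all 27025. Its core, TGACG or CGTCA, which is also part of the palindrome, was found for 18 (33.3%), against 30.9% of the 9089. The AP-1 motif TGANTCA was found for 7 (13.0%), against 5.42%. The gene with the palindrome was Arl4d, a small GTPase of the ARF family, and Aqp2, Pde4b, Nr4a1 and Lypd3 were among those with the core, shown here with the match in capitals and 15 bases of upstream sequence on either side.
Arl4d, chr11:101665500-101665537, plus strand: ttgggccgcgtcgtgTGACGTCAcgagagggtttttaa
Aqp2, chr15:99578830-99578864, plus strand: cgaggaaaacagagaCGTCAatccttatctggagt
Pde4b, chr4:102421506-102421540, plus strand: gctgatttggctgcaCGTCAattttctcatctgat
Lypd3, chr7:24636410-24636444, plus strand: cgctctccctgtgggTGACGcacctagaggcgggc
Nr4a1, chr15:101266598-101266632, plus strand: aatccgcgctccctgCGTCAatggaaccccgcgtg
Nr4a1, chr15:101266618-101266652, plus strand: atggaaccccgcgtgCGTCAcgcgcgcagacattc
Nr4a1, chr15:101266762-101266796, plus strand: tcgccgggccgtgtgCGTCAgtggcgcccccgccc
Nr4a1, chr15:101266791-101266825, plus strand: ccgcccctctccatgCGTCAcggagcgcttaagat
Nr4a1 had 4 copies of the core within its 250 bases, and the Aqp2 core ended 206 bases before the start site. Arl4d averaged 11.3 ± 1.26 CPM in dDAVP and 5.2 ± 0.139 CPM in vehicle (log2 fold change 0.73 ± 0.16, adjusted p = 0.0414), and its call was kept only when dDAVP replicate 1 was the library left out (adjusted p = 0.0630 to 0.410 without each of the other 5). The 3 fallen genes in the table held the palindrome and the AP-1 motif in 0 cases and the core in 1, Rasl11a. A match describes the letters and not binding.

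Receptors and sodium transport gave both rises and falls. Ramp3, an accessory protein that sets the ligand choice and trafficking of calcitonin-family receptors, had 7.58, 7.66 and 8.43 CPM in dDAVP against 1.09, 0.680 and 0.694 CPM in vehicle (log2 fold change 2.76 ± 0.28 with the term and 3.26 ± 0.30 without, adjusted p = 6.61e-07 with it). It was scarce in all vehicle libraries. Ptger1, the EP1 receptor for prostaglandin E2, had 8.22, 5.77 and 6.39 CPM in dDAVP against 15.3, 24.2 and 21.6 CPM in vehicle, with no overlap (-1.62 ± 0.32 with the term and -1.58 without, adjusted p = 0.0116 with it). It was the single called member of 9 prostaglandin genes with the term, with which 0.736% of all 12503 genes were called. Among 21 sodium channel genes and regulators, 1 rose and 1 fell with the term, beside 0.616% and 0.12% of all genes. Without it 12 were higher and 2 lower, near the 48.7% and 11.3% of all 12503 genes. Tmprss4, a membrane serine protease that can activate ENaC, averaged 21.3 ± 1.66 CPM in dDAVP and 5.06 ± 0.670 CPM in vehicle (1.71 ± 0.19, adjusted p = 3.36e-06). Scnn1g, which encodes the ENaC gamma subunit, had 7.25, 9.49 and 7.52 CPM in dDAVP and 12.9, 12.6 and 14.2 CPM in vehicle. Its dDAVP libraries all lay below the vehicle libraries (-0.99 ± 0.21 with the term and -0.71 ± 0.19 without, adjusted p = 0.0294 and 0.0183). Scnn1a, the alpha subunit, passed in neither fit (log2 0.16 without and -0.35 with the term, adjusted p = 0.215 with it; in DESeq2 it passed, at -0.483, adjusted p = 0.0207). Sgk1, a kinase that raises ENaC activity, was at 0.16 with the term (adjusted p = 0.966) and its groups overlapped.

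**Figure D4:**
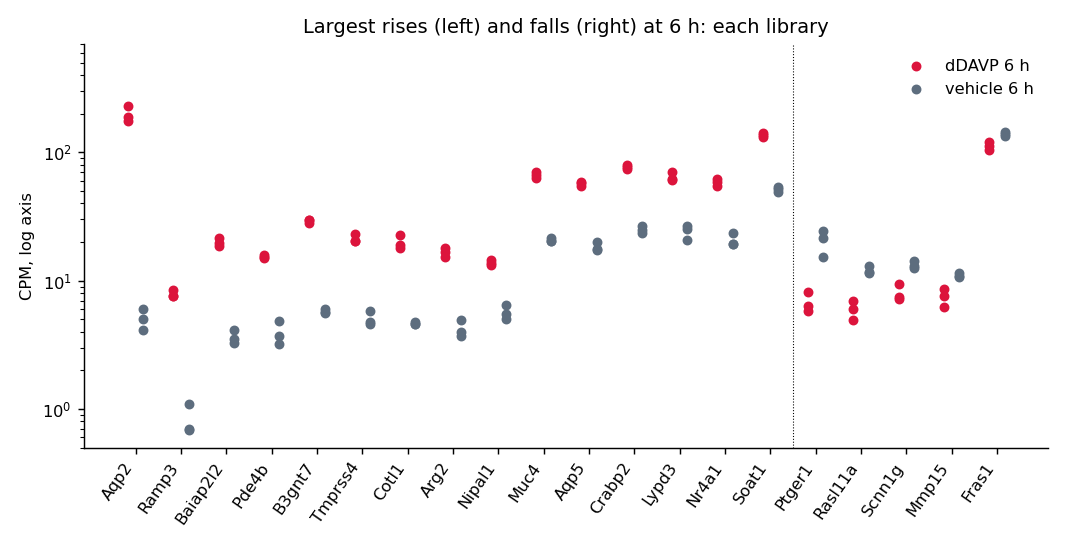
CPM on a log axis (y axis) of the 15 named genes with the largest rises and the 5 with the largest falls among genes called in both fits (x axis), with dDAVP libraries in red and vehicle libraries in grey. Groups without overlap were a condition for choosing the 20, and 81.7% of all 12503 genes met it. The distance runs from Aqp2, at 177 to 231 against 4.13 to 6.06 CPM, to Fras1, at 104 to 121 against 135 to 145 CPM.

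Of 24 actin and membrane curvature genes, 3 rose and 0 fell with the share term, beside 0.616% and 0.12% of all 12503 genes. Without the term 18 were higher and 0 lower, beside 48.7% and 11.3%. Baiap2l2, an I-BAR protein that bends membranes into protrusions, had 18.6, 19.8 and 21.6 CPM in dDAVP against 3.53, 3.25 and 4.12 CPM in vehicle, a gap with no overlap (2.16 ± 0.18, adjusted p = 6.04e-08). Cotl1, which binds filamentous actin, averaged 19.8 ± 2.39 CPM in dDAVP and 4.64 ± 0.105 CPM in vehicle (1.6 ± 0.27, adjusted p = 0.00179; 0.0513 without dDAVP replicate 3). Add3, an adducin that caps actin at the spectrin skeleton, averaged 138 ± 4.05 CPM in dDAVP and 58.1 ± 1.77 CPM in vehicle (0.97 ± 0.09, adjusted p = 4.17e-07). The actin-severing gene Gsn was at -0.25 with the term and did not pass.

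Several of the named rises encode surface proteins or act on glycans; they were grouped after their values were seen. The membrane mucin Muc4 had 70.9, 63.0 and 66.1 CPM in dDAVP against 20.4, 20.3 and 21.4 CPM in vehicle, and the vehicle libraries were nearly equal (1.42 ± 0.12, adjusted p = 6.93e-08). B3gnt7, a glycosyltransferase that extends keratan sulfate chains, averaged 29.1 ± 0.930 CPM in dDAVP and 5.76 ± 0.185 CPM in vehicle (2.04 ± 0.16, adjusted p = 1.84e-08). Lypd3, a GPI-anchored surface protein of epithelia, averaged 64.3 ± 4.75 CPM in dDAVP and 24.3 ± 3.06 CPM in vehicle (1.24 ± 0.11, adjusted p = 6.11e-08). Prom1, a pentaspan protein of apical membrane protrusions, had log2 0.97 ± 0.10 (adjusted p = 6.61e-07). Chosen after its values were seen, the mucin Muc20 rose by 0.67 ± 0.09 (adjusted p = 0.000209).

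Metabolic genes rose in small numbers. Arg2, the mitochondrial arginase that turns arginine into ornithine, had 18.1, 16.8 and 15.4 CPM in dDAVP against 3.69, 3.98 and 4.95 CPM in vehicle, with no overlap (1.6 ± 0.22, adjusted p = 0.000107). Together with it, Sat1 (0.52 ± 0.10, adjusted p = 0.00666) and Smox (0.52 ± 0.11, adjusted p = 0.0357), which acetylate and oxidise polyamines, made 3 of 16 arginine and polyamine genes higher with the term and 0 lower, against 12 and 1 without. Over all 12503 genes the shares higher and lower were 0.616% and 0.12% with the term and 48.7% and 11.3% without. Sat1 lost its call without dDAVP replicate 3 (adjusted p = 0.218), and Smox without that library (0.566), vehicle replicate 1 (0.106) or vehicle replicate 2 (0.130). Soat1, which esterifies cholesterol for storage, averaged 138 ± 4.65 CPM in dDAVP and 51.8 ± 2.38 CPM in vehicle (1.13 ± 0.11, adjusted p = 6.61e-07), while 0 of 26 cholesterol synthesis and uptake genes passed with the term. Crabp2, which carries retinoic acid, averaged 76.9 ± 2.48 CPM in dDAVP and 25.1 ± 1.35 CPM in vehicle (1.30 ± 0.12, adjusted p = 1.81e-07), and Nipal1, a magnesium transporter, 13.8 ± 0.591 and 5.65 ± 0.724 CPM (1.46 ± 0.19, adjusted p = 5.20e-05). Chosen after their values were seen, Idh1, which makes NADPH in the cytosol, rose by 0.60 ± 0.09 and Cpt1a, the gatekeeper of mitochondrial fatty acid uptake, by 0.59 ± 0.10 (adjusted p = 0.000595 and 0.00244; Cpt1a had 0.0709 without dDAVP replicate 3).

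Other rises included genes of signalling, transport and immunity. The counts per list given here are with the share term, with which 0.736% of all 12503 genes were called. Dusp10, a phosphatase of stress-activated MAP kinases, was the single called member of 13 MAP kinase phosphatase and Sprouty genes (12.2 ± 0.143 CPM in dDAVP and 5.90 ± 0.267 in vehicle; 0.86 ± 0.15, adjusted p = 0.00238; 0.0560 without dDAVP replicate 3). Kcnq1, a voltage-gated potassium channel, was the single called member of 5 potassium channels (0.57 ± 0.12, adjusted p = 0.0196), and lost its call without dDAVP replicate 3 (0.357), vehicle replicate 1 (0.0719) or vehicle replicate 3 (0.14). Complement C3 averaged 37.8 ± 3.84 CPM in dDAVP and 18.7 ± 2.09 CPM in vehicle (0.78 ± 0.17, adjusted p = 0.0266), the single call among 14 NF-kB, cytokine and complement genes, and lost it without dDAVP replicate 1 (0.0738), dDAVP replicate 3 (0.417), vehicle replicate 1 (0.108) or vehicle replicate 3 (0.168). Tecpr1, a protein of autophagosome maturation, had 57.2, 63.1 and 60 CPM in dDAVP against 28.2, 28.9 and 29.3 CPM in vehicle, the vehicle libraries nearly equal (1.06 ± 0.09 in both fits, adjusted p = 7.14e-08 with the term). Tbc1d16, which inactivates Rab GTPases, rose by 1.12 ± 0.11, and Tgm2, a transglutaminase, by 1.09 ± 0.14 (adjusted p = 6.61e-07 and 4.21e-05). Chosen after their values were seen, Avpi1, first described as induced by vasopressin, rose by 0.57 ± 0.08, the kinase Cdk18 by 0.62 ± 0.09, Adora1, an inhibitory adenosine receptor, by 0.56 ± 0.09, and Chp1, a regulator of sodium-proton exchange, by 0.81 ± 0.09 (adjusted p = 0.000107, 0.000303, 0.000773 and 2.14e-06).

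The falls beyond the background were few. Besides Ptger1 and Scnn1g, Rasl11a, a small Ras-like GTPase, had 4.96, 6.99 and 6.04 CPM in dDAVP against 11.4, 11.7 and 13.1 CPM in vehicle. All dDAVP libraries lay below all vehicle libraries (-1.53 ± 0.16 with the term and -1.02 ± 0.20 without, adjusted p = 8.89e-07 and 0.00540). Mmp15, a membrane-bound matrix protease, averaged 7.51 ± 1.22 CPM in dDAVP and 11.0 ± 0.349 CPM in vehicle (-0.73 ± 0.16, adjusted p = 0.0318), and Fras1, an extracellular matrix protein of epithelial basement membranes, 112 ± 8.27 and 140 ± 5.06 CPM (-0.62 ± 0.10, adjusted p = 0.000926). The sixth, Gm23365, outside the rule for naming, is annotated as a miRNA gene of 125 bases (-1.29, adjusted p = 0.0209); whether counts on so short a gene stem from longer overlapping transcripts was not tested. Rasl11a kept both its calls without each of the 6 libraries in turn. Ptger1 lost its call with the term without dDAVP replicate 3 (adjusted p = 0.151) or vehicle replicate 3 (0.0647), and Gm23365 without dDAVP replicate 3 (0.310), vehicle replicate 2 (0.0803) or vehicle replicate 3 (0.144). Scnn1g kept it only when dDAVP replicate 2 was left out (0.0553 to 0.208 in the other 5 cases), and Mmp15 only when dDAVP replicate 3 was (0.0556 to 0.14). Fras1 kept it each time, but its call without the term, adjusted p = 0.0464, was lost in each of the 6 cases. With median-of-ratios scaling (RLE), the fit with the term gave -1.751 for Ptger1, -1.663 for Rasl11a and -1.123 for Scnn1g. It gave -0.860 for Mmp15 and -0.749 for Fras1, and these 5 named genes stayed called as lower in it. RLE also lowered the median over all genes of at least 5 CPM in that fit, from 0.021 to -0.112. Falls were therefore favoured to hold, and this is no separate check of them. Of 16 alternative settings, both calls were kept in 15 for Rasl11a and 10 for Ptger1. They were kept in 5 for Scnn1g, 5 for Fras1 and 4 for Mmp15.

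Of the 81 genes, 18 were called in both fits under each of the 16 alternative settings of scaling, tool, filter, libraries, unit or background measure, and all 18 were higher in dDAVP. They included Aqp2, Aqp5, Ramp3, Baiap2l2, Pde4b, B3gnt7, Tmprss4, Muc4, Crabp2, Lypd3, Nr4a1, Soat1, Akap12, Add3, Prom1, Tbc1d16 and Chp1, the last chosen after its values were seen; the eighteenth was the predicted gene Gm42427. Without each library in turn, 41 of the 81 kept both calls, 40 higher and 1 lower (Rasl11a). The sign of the log2 fold change with the term was the same for all 81 under the 16 settings. The plain count of 7503 became 442 without dDAVP replicate 1, 157 without dDAVP replicate 2, 392 without vehicle replicate 1 and 158 without vehicle replicate 2, and 8396 and 5951 without dDAVP replicate 3 and vehicle replicate 3. The count of genes called in both fits lay between 42 (without dDAVP replicate 3) and 81. The split of directions differed with RLE scaling and with DESeq2. With RLE scaling 38 genes were higher and 25 lower in the fit with the term, and with DESeq2 53 and 57, against 77 and 15. The median over the 12503 genes was -0.112 in each of these, against 0.021. Whether this shift accounts for the changed split was not tested. Egr2, Kcnq1, Sat1, Smox and Arl4d missed the threshold with both RLE and DESeq2, and Sik1, Dusp10 and C3 with RLE (adjusted p = 0.0512, 0.0506 and 0.215). So did Cdk18, Adora1, Idh1 and Cpt1a with RLE (0.0512, 0.130, 0.0911 and 0.190). In the fit without the term, RLE gave 3273 higher and 1332 lower, no filter on low counts 1437 and 1269, and a new fit and scaling on the 12503 genes alone 1358 and 1547, whose median was 0.037 against 0.324. On log2(TPM + 1) with limma the plain split was 73 higher and 3010 lower, and in each library a single gene, Gm24245, held 49.0% to 51.7% of the TPM total in dDAVP and 43.2% to 46.9% in vehicle.

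Most of the plain difference at 6 h belonged to genes that lost their call with the share in the fit. Of these 7422 genes, 6012 were higher in dDAVP and 1410 lower. For 7187 of them, 5792 higher and 1395 lower, the slope on receptor share itself passed an adjusted p of 0.05 in the matching direction, as a slope of either sign did for 87.8% of the 12503 genes. The other 235, 220 higher and 15 lower, lost the call with no such slope. The higher ones were abundant messenger RNAs, with a median of 61.8 CPM, 96.9% protein coding and 4.06% made of a single exon block. The lower ones had a median of 6.53 CPM, 42.9% were protein coding, and 34% were a single exon block. With CPM scaled as in the fits, 597 of the 1410 lower ones averaged at least 5 CPM in both groups, against 5963 of the 6012 higher ones. A gene that passes the minimum through vehicle alone has to be lower in dDAVP, so the low level of this group is partly set by the minimum. The 236 receptor genes among the 12503 had a median of -1.08 without the term and 0.05 with it, which the choice of the share fixes. At the level of a library, long noncoding RNA held 2.33% to 2.75% of counts in dDAVP and 3.06% to 3.37% in vehicle, and cytosolic ribosomal protein genes 4.24% to 4.47% and 3.71% to 4.11%.

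The lists differed in how many members were called in the plain fit, in which 48.7% of all 12503 genes were called higher. All 42 cytosolic ribosomal protein genes were called higher without it, with a median of 0.53, and 0 with it, with a median of 0.05. Called higher without it were also 29 of 31 nuclear-encoded respiratory chain genes (median 0.46 without and 0.02 with the term), 25 of 29 genes of ER stress and the amino acid response (0.43 and 0.05), 22 of 26 genes of junctions, polarity and keratins (0.40 and 0.05) and 21 of 29 cell cycle genes (0.39 and -0.02). With the term, 0 genes of each of these lists passed. The count called higher without the term was 20 of 24 for glycolysis and the hypoxia response, 19 of 26 for cholesterol synthesis, 13 higher and 1 lower of 26 for vesicle traffic, 10 of 17 for epithelial transcription factors, 8 of 20 for interferon and antigen presentation, 5 of 17 for TGF-beta and matrix, and 4 of 13 for mitochondrially encoded proteins, again with 0 called with the term. The last 3 of these lists lay below the share over all genes. The median of the product of slope and share difference was 0.49 for the ribosomal list and 0.46 for the respiratory list, close to their plain medians. In the list of junctions the desmosomal Dsp was at -0.35 with the term (adjusted p = 0.0725) and passed with RLE scaling (-0.48, adjusted p = 0.0312). Osmotic response genes had 1 call of 11 with the term, Aqp2 itself, and principal cell markers 1 higher and 1 lower of 13, Aqp2 and Scnn1g. With the term 0.736% of all 12503 genes were called.

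The 5 lower genes named here passed the minimum of 5 CPM through vehicle alone, so they had to be lower in dDAVP. Of the 1410 lower genes of this class, 597 averaged at least 5 CPM in both groups with CPM scaled as in the fits, not on the unscaled totals of the minimum. Among the largest plain falls, Crb1-ps, a pseudogene, had 1.57, 0.499 and 1.17 CPM in dDAVP against 5.30, 4.47 and 4.76 CPM in vehicle, with no overlap and a log2 fold change of -2.13 without the term and -0.25 with it. Its product of slope and share difference was -2.14. Lrrc7, Daam2, the interleukin-7 receptor gene Il7r and the myosin gene Myh8 had plain values of -1.71, -1.55, -1.53 and -1.50 and values of -0.29, -0.43, -0.47 and -0.02 with the term. Bhlhe41, a clock repressor chosen after its values were seen, was abundant, at 4640, 4320 and 4790 CPM in dDAVP against 7510, 8050 and 6420 CPM in vehicle, and stood at -0.68 without and 0.14 with the term (adjusted p = 0.0433 and 0.974). Its slope alone gave -0.89. It was the lower one among 8 called clock genes of 16 without the term, beside 60.0% of all 12503 genes called in either direction. With the term 0 of the 16 passed.

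The largest plain rises in this class behaved otherwise. Cebpb, a bZIP factor of acute and metabolic responses, had 8.05, 34.5 and 42.0 CPM in dDAVP against 4.62, 3.35 and 2.73 CPM in vehicle. The dDAVP libraries were all higher but differed widely among themselves, replicate 1 lying far below the other two. Its log2 fold change was 2.98 ± 0.66 without the term and 2.77 ± 0.77 with it (adjusted p = 0.0133 and 0.195), so the estimate stayed while the call was lost, and its slope did not pass (adjusted p = 0.657). Csnk1g2, a casein kinase, and Hnrnpd, an RNA-binding protein, had the same low dDAVP replicate 1, at 66.8 against 127 and 134 CPM in the other dDAVP libraries for Csnk1g2 and 68.1 against 131 and 128 CPM for Hnrnpd, with values of 1.28 and 1.05 with the term (adjusted p = 0.570 and 0.677). Tspan33, a tetraspanin, had 1.74 and 1.19 without and with the term, and Alyref, an mRNA export adaptor, 1.56 and 0.75 (adjusted p = 0.267 and 0.932 with it). The plain calls of Cebpb, Csnk1g2 and Hnrnpd were lost without dDAVP replicate 2 (adjusted p = 0.0669, 0.0884 and 0.0924) or vehicle replicate 2 (0.0721 each). Alyref kept its plain call only when dDAVP replicate 3 was left out (0.0542 to 0.0997 otherwise), and the 5 lower genes named above lost theirs without dDAVP replicate 2 (0.0924 to 0.0928) or vehicle replicate 2 (0.0589 to 0.0761), all but Il7r also without dDAVP replicate 1 or vehicle replicate 1.

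A set of 11 genes, 2 higher and 9 lower, passed only with the share in the fit. Trpm2, a calcium-permeable channel, had 14.8, 16.5 and 18.3 CPM in dDAVP against 12.7, 12.9 and 12.8 CPM in vehicle, with no overlap, and was at 0.37 without the term and 0.70 with it (adjusted p = 0.0511 and 0.00749). It lost the call without dDAVP replicate 3 (0.119) and with RLE scaling (0.102). The sialyltransferase gene St6gal1, Arhgdib and Nrep were at -0.22, -0.27 and -0.38 without the term and at -0.68 ± 0.11, -0.72 ± 0.13 and -0.78 ± 0.14 with it (adjusted p = 0.00149, 0.00296 and 0.00289). These 3 held without each library in turn. Lrp2, the endocytic receptor megalin and the single proximal tubule marker that reached 5 CPM, was at -0.50 ± 0.10 with the term (adjusted p = 0.0159) although its groups overlapped, at 56.8, 50.3 and 44.0 CPM in dDAVP and 55.3, 51.8 and 58.7 CPM in vehicle. It lost this call without dDAVP replicate 3 (0.244), vehicle replicate 1 (0.0521) or vehicle replicate 3 (0.101).

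The 6 h effect was then set beside the effects at the other times, with the share in the fit and separate libraries in each time. Of the 81 genes, 64 (79.0%) were also called in the same direction at 3 h, where they made up 32.2% of the 199 called (1.59% of the 12503 genes), 43 (53.1%) at 12 h (55.8% of 77, 0.616% of the genes) and 43 (53.1%) at 24 h (47.3% of 91, 0.728%). In all, 33 were called at all 4 times and 9, Egr2 among them, at no other time. The 75 rises had a median log2 fold change of 0.75, 0.73, 0.39 and 0.41 at 3, 6, 12 and 24 h. Since they were chosen by their value at 6 h, that value is favoured in this series. Aqp2 was at 4.36, 5.25, 4.31 and 5.34, Pde4b at 2.03, 2.06, 2.02 and 1.77, and B3gnt7 at 2.85, 2.04, 2.00 and 1.99. Nr4a2 was at 2.06, 1.07, 0.68 and 0.71 and Ramp3 at 3.70, 2.76, 0.86 and 1.21, whereas C3 was at 0.36, 0.78, 1.41 and 1.6.

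**Figure D5:**
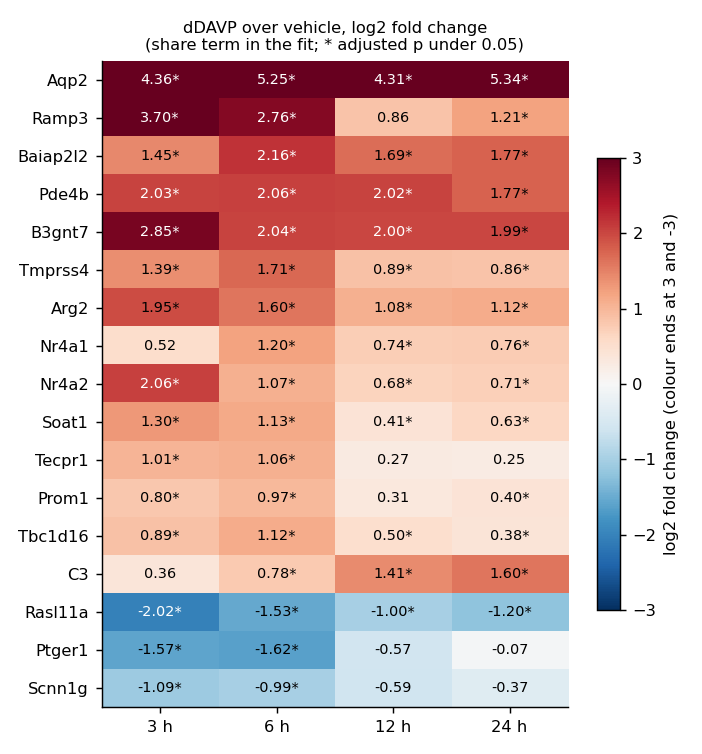
Log2 fold change of dDAVP over vehicle with the share term at 3, 6, 12 and 24 h (columns) for 17 genes called in both fits at 6 h (rows). Stars mark an adjusted p under 0.05 at that time, and the values run from -2.02 for Rasl11a at 3 h to 5.34 for Aqp2 at 24 h.

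Differences between times were tested directly, and few passed. Of the 12503 genes, 0 (0.0%) passed when the 3 h effect was subtracted from the 6 h effect, although 426 had an unadjusted p under 0.05, and 0 (0.0%) for 6 h minus the mean of the other times (844 unadjusted). With RLE scaling 3 and 0 passed. For 6 h minus 12 h, 1 gene passed (0.008%; 1040 unadjusted), Tecpr1, with an effect of 1.06 at 6 h and 0.27 at 12 h and a difference of 0.79 (adjusted p = 0.00567). Tecpr1 lost this call without dDAVP replicate 3 of 6 h (adjusted p = 0.0505), without vehicle replicate 1 of 12 h (0.0909) and with RLE scaling (0.182). The next were Prom1, Soat1, Ppp1ccb and the bHLH factor Max, with differences of 0.66, 0.72, 2.55 and -0.65 (adjusted p = 0.0725 for each). Against 3 h the smallest p belonged to Klhl36, a BTB-Kelch protein, with an effect of 0.18 at 6 h and 1.05 at 3 h (difference -0.87, adjusted p = 0.0696), Nr4a2 (-0.98, 0.0847), Usp2, a deubiquitinase (-0.87, 0.166), Arc, an immediate early gene (0.62, 0.260), and Tgm2 (0.74, 0.285). The count for 6 h minus 12 h depended on single libraries: it was 40 without dDAVP replicate 1 of 6 h and 60 without vehicle replicate 3 of 12 h, and 0 without dDAVP replicate 3 of 6 h or vehicle replicate 1 of 12 h. Without vehicle replicate 1 of 6 h, 2 genes passed against 3 h and 1 against the mean of the other times.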

How the data were processed

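cDNA was made from total RNA of mpkCCD cells (SMART-Seq HT) and sequenced in 24 libraries, per the labels' protocols. The authors deposited estimated counts and TPM per gene; the submitters' processing notes name Salmon 0.14.10 and GRCm38.p6. How transcripts were summed to genes, and whether strand was used, is not given in the sources used here. Estimated counts, many of them fractional, were rounded to whole numbers. edgeR 4.0.16 (R 4.3.3) was run on all 24 libraries with TMM scaling, its default expression filter (29743 of 54432 genes kept), the quasi-likelihood F test and Benjamini-Hochberg adjustment over all tested genes, threshold 0.05, without and with the centred log2 receptor share. The SE of a log2 fold change was derived from the F statistic, as the absolute log2 fold change divided by the square root of F. CPM printed per gene use TMM library sizes. The 5 CPM rule, its values just inside and just outside, and the summed CPM of markers use unscaled library totals. The deposited TPM gave levels per length and an alternative test. The 6 libraries held 17.25 to 27.64 M estimated counts. Scripts were tested on simulated data. Gene coordinates came from GENCODE on GRCm38, promoters from RefSeq.

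Named genes were the 15 largest rises and up to 15 largest falls called in both fits with groups not overlapping, the 5 largest rises and falls called in the plain fit alone, the 5 smallest p among genes called only with the share, up to 4 per list, the 5 smallest p per contrast between times, and 12 fixed genes. Predicted-gene names were left out. The members and lists were chosen with earlier results of these data known. Alternatives were RLE scaling, DESeq2 1.42.0, no low-count filter, a fit on genes of 5 CPM, a replicate block, the 6 libraries alone, each library left out, limma 3.58.1 on log2(TPM + 1) and log2(TPM + 0.1), and other background measures. Leaving out libraries for the contrasts between times was added after seeing the data. Replicate libraries differed by more than sampling noise. Not every gene that this rule names is printed.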

Additional observations from a re-analysis of the deposited data

Results flagged for a closer look

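The effect of dDAVP on Tecpr1 differed between times by the test of the difference itself: it was 1.06 at 6 h and 0.27 at 12 h (log2, share in the fit), a difference of 0.79 (edgeR quasi-likelihood F test, adjusted p = 0.00567). Without each of the 12 libraries of these times in turn the difference was 0.713 to 0.837, and the call was lost without dDAVP replicate 3 of 6 h (adjusted p = 0.0505) and vehicle replicate 1 of 12 h (0.0909). With RLE scaling it was 0.63 (0.182).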

How the results depend on the processing

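Counts without the share term, with it, and called in both fits were 7503, 92 and 81. They became 4605, 63 and 42 with RLE scaling, 2706, 59 and 49 without the low-count filter, 2905, 169 and 146 when fitted on genes of 5 CPM, 3083, 32 and 32 on log2(TPM + 1), and 4086, 36 and 36 on log2(TPM + 0.1). The 6 libraries alone gave 8265, 38 and 35. With the number of genes counted as the background, 150 passed with it and 145 in both. DESeq2 gave 7300, 110 and 57. Leaving out each library gave 157 to 8396, 47 to 95 and 42 to 81. The receptor share difference stayed between -0.377 and -0.304 percentage points without each library. Between times, 6 h minus 3 h gave 3 genes with RLE and 0 to 2 without single libraries; 6 h minus 12 h gave 0 with RLE, 141 without the share term and 0 to 60 without single libraries; 6 h minus the mean gave 0 to 1. Among the named genes, no value past the threshold changed sign under these alternatives, but the split of higher and lower calls over all genes did: on log2(TPM + 1) it was 73 higher and 3010 lower without the term, and in DESeq2 53 and 57 with it. The cause of these changes was not tested.

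Replicate numbers did not pair the libraries: same-numbered dDAVP and vehicle libraries deviated with correlations of -0.119, -0.352 and -0.483, and not every library correlated best with its own number. With a replicate block the counts were 8369, 45 and 43, and 2 for 6 h minus 12 h. Limits are the 3 libraries a group, the overlap of treatment and receptor share at 6 h, and low counts for genes near 5 CPM, where small differences were not detectable at this depth.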
